A study of Bos taurus with 13 samples.

Results

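The extracellular matrix genes BGN, FBLN5, POSTN, TNC, VCAN and ECM2 were followed over 13 arrays of spotted bovine mammary cDNA, each hybridised with 2 RNAs. The members were taken by name: 21 spots on the array carried 1 of these 6 gene symbols, out of 706 named genes and 3888 spots in all. All 6 passed the filter on missing values, which kept 703 genes. POSTN had 2 cDNA clones of 3 spots each, and each of the others had 1 clone of 3 spots.

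Proteoglycans are core proteins that carry glycosaminoglycan chains and organise the collagen network and the water held in the matrix. Matricellular proteins are secreted into the matrix but act mainly on cells, by binding integrins and growth factors, and are typically made where tissue is being built or repaired. In the mammary gland both groups belong to the stroma around the ducts and alveoli. Among the members, BGN encodes biglycan, a small leucine-rich proteoglycan, and VCAN encodes versican, a large proteoglycan that binds hyaluronan. POSTN encodes periostin and TNC encodes tenascin C, both matricellular proteins. FBLN5 encodes fibulin 5, which is needed to assemble elastic fibres, and ECM2 encodes a secreted protein with leucine-rich repeats. In the RefSeq gene table of the bovine assembly ARS-UCD2.0, ECM2 lies next to ASPN, the gene of the small leucine-rich protein asporin, which was also on the array.

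8 arrays compared the BovMac cell line, the common reference, with a bovine tissue each: mammary gland (prepubertal, from a Holstein heifer of 136 kg), liver, ileum, adipose tissue, thymus, spleen, adrenal tissue and lymph tissue. On 2 arrays RNA of lactating mammary gland was set against prepubertal gland, of a 136 kg heifer (array 1) and of a 227 kg heifer (array 2, for which a keyword reads post-pubertal and the title was followed). 1 array compared prepubertal gland (136 kg) with postpubertal gland (310 kg), and 2 arrays compared the reference with itself. The labels spell the reference BovMav on array 1 of these and BovMac on array 2, and both were taken as the same line. Each tissue was a single array, and the labels give no age, treatment or number of animals and do not say whether RNA was pooled.

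Values are centred log ratios whose base is not given in the sources used here, so none was turned into a fold. On the tissue arrays the labels put the tissue in channel 2, and on the lactating arrays the lactating gland in channel 1. Which channel was divided by which is not given. The 3 measured hepatocyte genes lay between -1.10 and 0.21 on the liver array. The 5 measured leukocyte genes lay between -0.35 and 1.03 in lymph tissue, -0.47 and 1.04 in spleen, -0.29 and 0.28 in thymus and 0.10 and 3.17 in ileum. These markers did not run 1 way, and the direction of the tissue ratios was not settled. The tissue signs below are those of the deposited ratio, and with the sign turned, higher and lower trade places for every tissue. Between pairs of tissue arrays the Pearson r over all spots ran from -0.15 to 0.59. On the lactating arrays, values above 0 are on the casein side, because CSN1S1 (alpha-S1 casein) lay at 2.09 ± 0.67 (SD, n = 2) and CSN2 (beta-casein) at 0.77 ± 0.02. That side likely holds the RNAs at a higher level in lactating than in prepubertal gland. Of the 8 measured milk genes, 1 lay below 0 on each array. These were the caseins CSN1S2 (-0.19 on array 1, mean 0.10 ± 0.41) and CSN3 (-0.16 on array 2, mean 0.41 ± 0.80). An array of a whole tissue cannot tell fewer cells of a type from less RNA per cell.

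The arrays were not equally variable. The SD over genes was 0.51 on the ileum array and 0.15 to 0.25 on the other 7 tissue arrays. It was 0.24 (array 1) and 0.41 (array 2) where the reference was hybridised to itself. Apart from ileum, the tissue arrays thus did not clearly spread more over genes than the reference against itself. The lactating arrays had 0.48 and 0.60, and the postpubertal array 0.17. Spots of the same clone had a median SD of 0.06 to 0.10 on tissue arrays and 0.20 on the postpubertal array. Where the reference was hybridised to itself it was 0.10 (array 1) and 0.30 (array 2). The number of arrays limits the precision of every value.

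POSTN had the value farthest from 0 of any member in any tissue, -1.52 ± 0.33 (SD over 6 spots) on the ileum array. The next lowest was thymus at -0.36 ± 0.20, followed by prepubertal mammary gland at -0.25 ± 0.15, adipose tissue at -0.24 ± 0.04 and lymph tissue at -0.20 ± 0.12. Adrenal tissue stood at -0.06 ± 0.05, spleen at 0.01 ± 0.04 and liver at 0.10 ± 0.10. Ileum thus lay 1.16 units below the next tissue, and its spots, from -1.82 to -1.14, overlapped with those of no other tissue. Every other pair of neighbours in this order had overlapping spots. The gap put POSTN at rank 4 among the 695 genes with a value on all 8 tissue arrays, and its ileum value was also the fourth lowest of those genes.

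Both POSTN clones were far below 0 in ileum, but not equally far. Clone A read -1.81 ± 0.02 (SD over 3 spots) and clone B -1.23 ± 0.12. In thymus the order was turned, with clone A at -0.20 ± 0.12 and clone B at -0.52 ± 0.10. Prepubertal mammary gland showed the same order as thymus, at -0.12 ± 0.09 and -0.38 ± 0.02. In adipose tissue (-0.21 and -0.26), liver (0.08 and 0.12) and spleen (0.00 and 0.03) the clones were close. In lymph tissue they were at -0.10 ± 0.01 and -0.30 ± 0.06, without overlap of their spots. The clones also differed where the reference was hybridised to itself, at 0.12 ± 0.06 and -0.15 ± 0.00 on array 1 and, farther apart, at 0.37 ± 0.36 and -0.08 ± 0.05 on array 2.

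**Figure D1:**
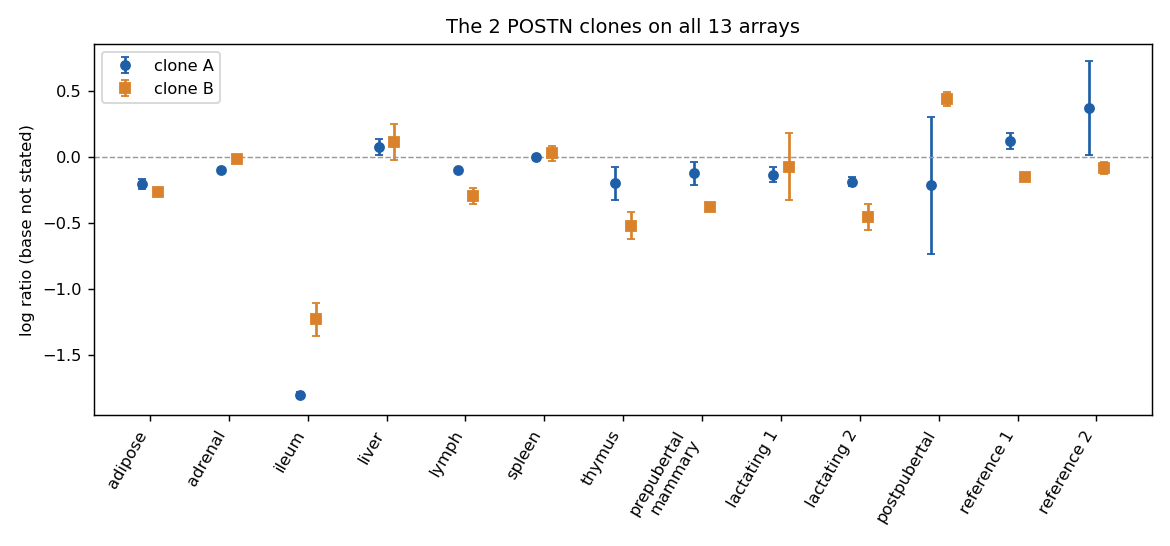
Mean log ratio (base not stated) of the 2 POSTN clones on each of the 13 arrays, with bars for the SD over 3 spots. Ileum is the only array on which both clones lie below -1, at -1.81 for clone A and -1.23 for clone B.

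Of the 48 values of the 6 members on the 8 tissue arrays, POSTN in ileum was the 1 that lay at least 1 unit from 0. On the ileum array 6% of all genes lay that far from 0, and 2.57% on the negative side. The share was 0.853% in prepubertal mammary gland, 0.285% in adrenal tissue and in liver, 0.142% in lymph tissue and in spleen, and 0% in adipose tissue and in thymus. A limit of 0.5 units left the count at 1, but the share of all genes past that limit was not counted. Scaling the arrays to the same median absolute deviation moved the POSTN value in ileum to -1.09.

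The other 5 members did not share this value. In ileum BGN lay at -0.08 ± 0.06 (SD over 3 spots), VCAN at 0.13 ± 0.28, TNC at 0.23 ± 0.23, ECM2 at 0.33 ± 0.22 and FBLN5 at 0.46 ± 0.14. FBLN5, TNC, VCAN and ECM2 had their most positive tissue value there, while POSTN had its most negative. The ileum array was also the most variable of the tissue arrays. The share of all genes with an extreme value there was not counted. With arrays scaled to the same median absolute deviation, FBLN5 was higher in adrenal tissue (0.41) than in ileum (0.33). VCAN was too (0.16 against 0.09). The members' median in ileum was 0.18, beside 0.02 over all genes.

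Marker genes of several cell types moved on the ileum array as well. All 5 measured leukocyte genes (0.10 to 3.17) and all 3 measured epithelial genes (0.06 to 1.94) were above 0. The 3 measured fibroblast and smooth muscle genes (ACTG2, MYH11 and TPM1) ran from -0.72 to 0.28, with 1 below 0. The part of these cell types in the POSTN value was not tested.

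**Figure D2:**
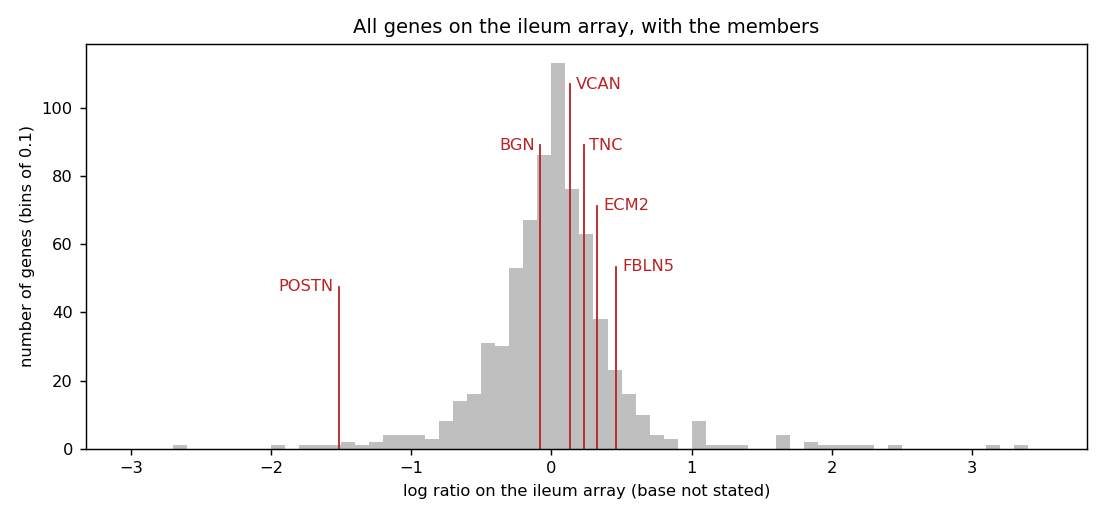
Number of genes by log ratio (base not stated) on the ileum array, in bins of 0.1 units, with a red line at the value of each member. POSTN lies in the left tail at -1.52, and the other members lie between -0.08 and 0.46.

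BGN and VCAN, the 2 proteoglycans whose core proteins carry chondroitin or dermatan sulfate, were lowest in lymph tissue. BGN stood at -0.34 ± 0.02 (SD over 3 spots) in lymph tissue, -0.12 ± 0.04 in spleen, -0.10 ± 0.04 in liver, -0.08 ± 0.06 in ileum, -0.05 ± 0.05 in prepubertal mammary gland, 0.04 ± 0.07 in thymus, 0.06 ± 0.05 in adrenal tissue and 0.10 ± 0.12 in adipose tissue. Lymph tissue was the only tissue whose BGN spots were clear of those of its neighbour, by a gap of 0.22 between means. 7.82% of the genes on that array had a lower value.

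VCAN stood at -0.45 ± 0.11 (SD over 3 spots) in lymph tissue, -0.32 ± 0.03 in prepubertal mammary gland, -0.26 ± 0.06 in liver, -0.21 ± 0.05 in spleen, -0.03 ± 0.09 in thymus, 0.04 ± 0.11 in adipose tissue, 0.10 ± 0.09 in adrenal tissue and 0.13 ± 0.28 in ileum. Its spots fell into 3 steps: lymph tissue was clear of mammary gland, and spleen was clear of thymus, while all other neighbours overlapped. Only 2.13% of genes were lower in lymph tissue, 3.42% in liver and 3.70% in prepubertal mammary gland.

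FBLN5 was above 0 in all 8 tissues. It stood at 0.02 ± 0.03 (SD over 3 spots) in adipose tissue, 0.02 ± 0.02 in spleen, 0.03 ± 0.09 in liver, 0.08 ± 0.07 in thymus, 0.10 ± 0.04 in lymph tissue, 0.26 ± 0.16 in adrenal tissue, 0.33 ± 0.02 in prepubertal mammary gland and 0.46 ± 0.14 in ileum. The 3 highest tissues were adrenal tissue, mammary gland and ileum, and ileum was the only one whose spots were clear of its neighbour's. The reference against itself gave 0.34 ± 0.03 on array 1, as high as the mammary value, and 0.05 ± 0.17 on array 2.

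TNC was below 0 in 6 of the 8 tissues. Thymus (-0.36 ± 0.15, SD over 3 spots), spleen (-0.34 ± 0.13), prepubertal mammary gland (-0.32 ± 0.22) and adipose tissue (-0.31 ± 0.04) formed a low group with overlapping spots. Adrenal tissue followed at -0.12 ± 0.01, lymph tissue at -0.10 ± 0.01, liver at 0.03 ± 0.17 and ileum at 0.23 ± 0.23. The spots of adipose tissue were clear of those of adrenal tissue, and those of adrenal tissue were clear of lymph tissue by a gap of only 0.02 between means. TNC was among the lowest genes in adipose tissue, where 1.71% of genes were lower, and in mammary gland, where 3.84% were.

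ECM2 showed no step between neighbouring tissues that its spots resolved. It ran from -0.15 ± 0.29 (SD over 3 spots) in spleen through -0.10 ± 0.22 in lymph tissue, -0.10 ± 0.24 in prepubertal mammary gland, -0.10 ± 0.10 in liver, -0.02 ± 0.21 in adrenal tissue, 0.07 ± 0.11 in adipose tissue and 0.08 ± 0.15 in thymus to 0.33 ± 0.22 in ileum. With the median over spots in place of the mean, ECM2 read 0.02 in spleen, 0.02 in adrenal tissue and 0.04 in mammary gland, so its sign in these tissues depends on that choice. The same choice turned TNC in liver from 0.03 to -0.004 and VCAN in adipose tissue from 0.04 to -0.02. Without ileum the SD of ECM2 over tissues was 0.09, smaller than that of all but 11.8% of genes.

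**Figure D3:**
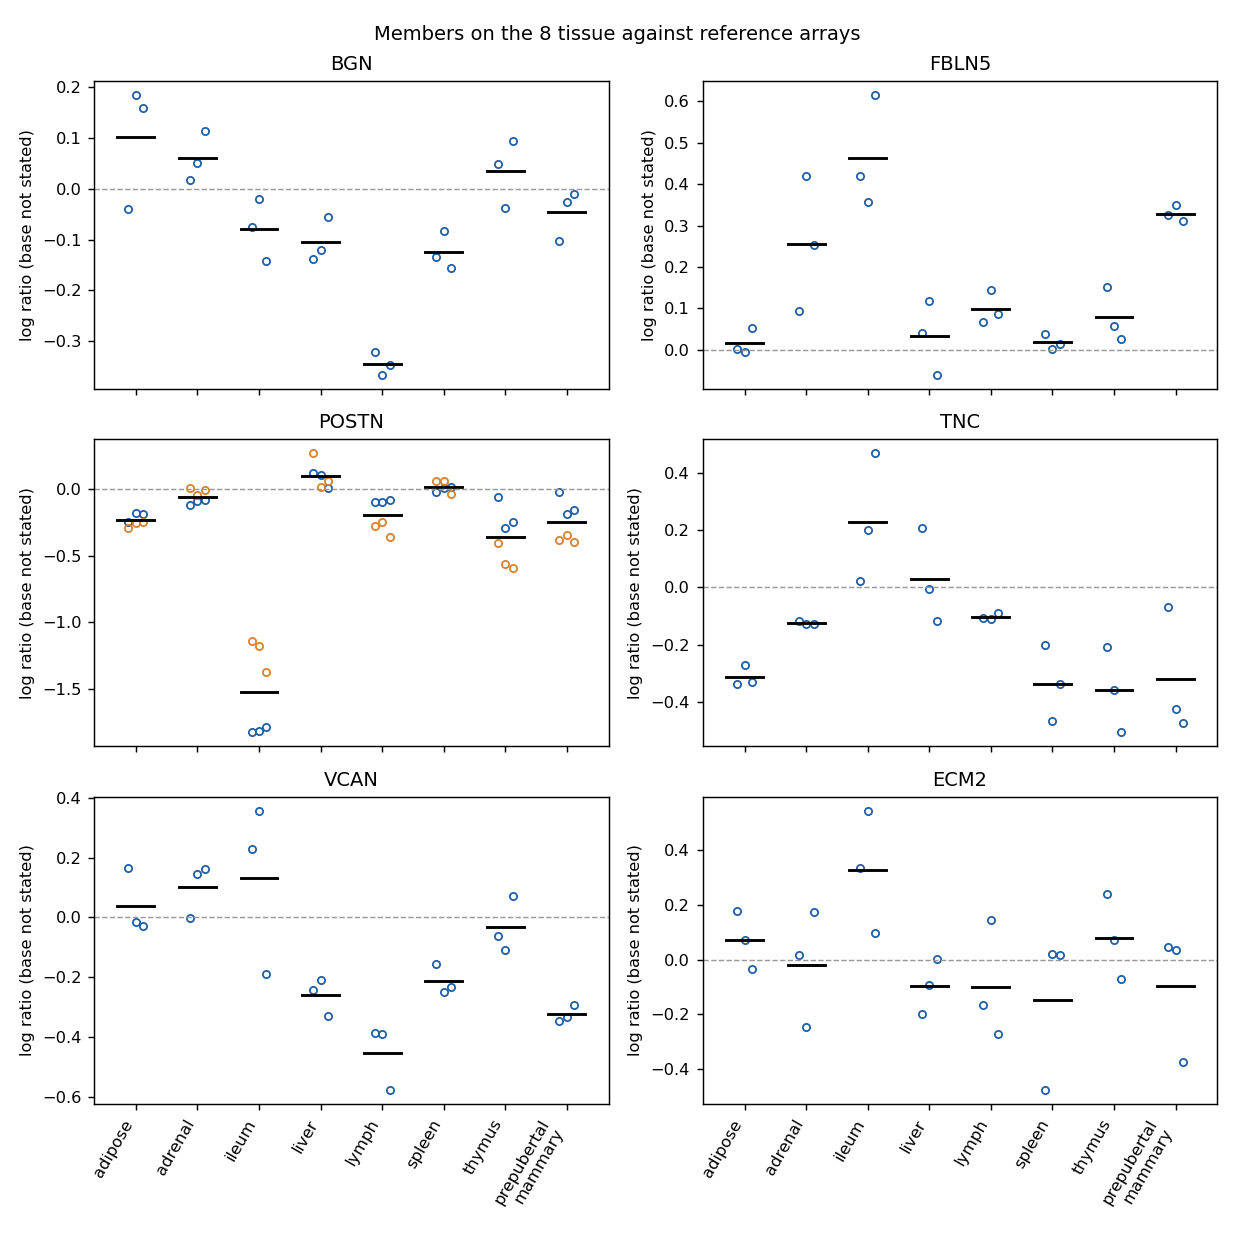
Log ratio (base not stated) of every spot of the 6 members on the 8 tissue arrays, with a black line at the gene's value and a dashed line at 0; each panel has its own scale. For POSTN, blue and orange circles are clones A and B. POSTN in ileum lies at -1.52, while the other genes stay between -0.45 and 0.46.

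Set against the reference hybridised to itself, most tissue values of the members were small. 9 of the 48 were larger in size than both reference against reference values of the same gene, or 28.0% over the other genes with those values (1507 of 5376). POSTN held 5 of the 9 (ileum, thymus, prepubertal mammary gland, adipose tissue and lymph tissue), but its clones went opposite ways where the reference was hybridised to itself. Taken singly, clone B was beyond its own reference values in the same 5 tissues and clone A in 1, ileum. BGN and VCAN each had 1, both in lymph tissue, FBLN5 and ECM2 each had 1, both in ileum, and TNC had 0.

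Across tissues the members did not move as 1 group. Over the 8 tissue arrays the Pearson r was 0.76 for BGN with VCAN, 0.75 for VCAN with ECM2 and -0.91 for POSTN with ECM2. These points share the reference RNA, and ileum weighs on them: without it the same pairs had r of 0.89, 0.73 and -0.63 over 7 tissues. POSTN with TNC turned from -0.59 to 0.63 when ileum was left out. Since the values come from single arrays, these are descriptions.

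The genes with the most similar tissue patterns were found by the highest r over the same 8 arrays, among 689 other genes. For BGN they were ZZZ3 (r = 0.97) and ASPN (0.93), with 0.97 and 0.93 without ileum. ZZZ3 and ASPN were also lowest in lymph tissue, at -0.20 ± 0.09 and -0.32 ± 0.06 (SD over 3 spots). Both were picked for their likeness to BGN on these arrays, so the shared lowest tissue largely follows from that choice. ASPN is, like BGN, a small leucine-rich family member, but its ileum spots were scattered, with an SD of 0.83. For POSTN they were TPM4, a tropomyosin (r = 0.98, with -1.69 in ileum), and MSN, the membrane to actin linker moesin (0.98, with -1.23 in ileum), and r fell to 0.71 and 0.69 without ileum.

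For the remaining members the closest genes were ATG12 (r = 0.96) and PKP4 (0.93) with FBLN5, YEATS2 (0.93) and ACTB (0.92) with TNC, PAN2 (0.94) and ATF1 (0.91) with VCAN, and POLE3 (0.92) and ST14 (0.91) with ECM2. Without ileum these became 0.92 and 0.84 for FBLN5, 0.83 and 0.80 for TNC, 0.95 and 0.92 for VCAN, and 0.75 and 0.63 for ECM2. The ST14 spots in ileum had an SD of 1.16.

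**Figure D4:**
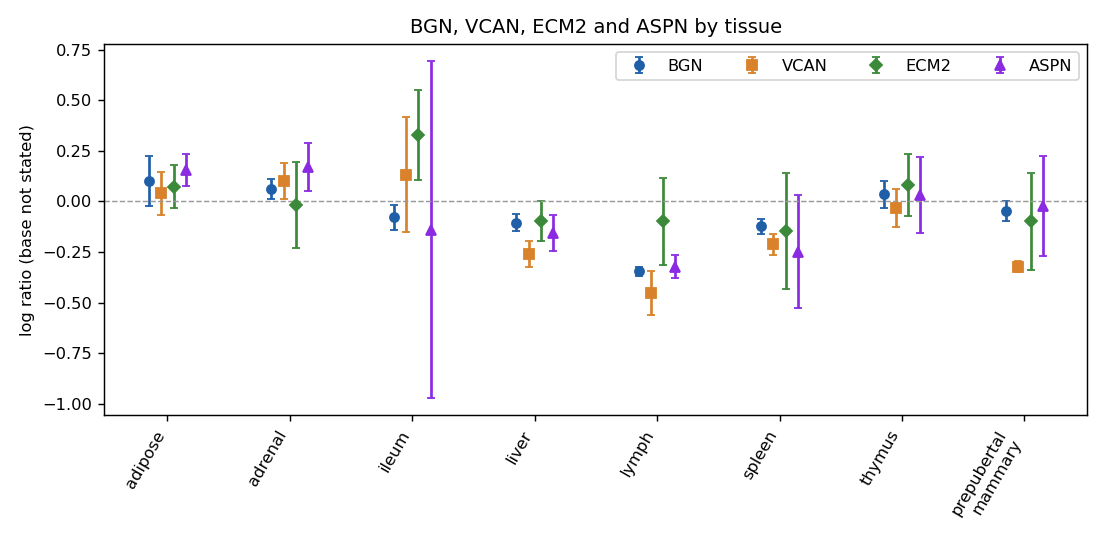
Mean log ratio (base not stated) of BGN, VCAN, ECM2 and ASPN on the 8 tissue arrays, with bars for the SD over 3 spots. BGN at -0.34, VCAN at -0.45 and ASPN at -0.32 have their lowest values in lymph tissue, and ECM2 spans the range of -0.15 to 0.33. ASPN was picked for its likeness to BGN on these same arrays.

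The lactating arrays asked which genes differ between lactating and prepubertal mammary gland. All 6 members lay on the opposite side of both arrays, as did 33.7% of all genes (235 of 697), and their median was -0.20 beside 0.00 over all genes. 1 of the 6, ECM2, passed limma's test of the mean against 0, adjusted over all genes (Benjamini-Hochberg at 0.05), beside 14.8% of all genes (103 of 697) and 3.44% called on the opposite side (24). All 6 also lay below 0 on both arrays in the deposited values without centring, where 50.2% of genes did and the median of all genes was -0.10.

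ECM2 read -0.61 ± 0.51 (SD over 3 spots) on array 1 and -0.75 ± 0.36 (2 spots) on array 2. Single spots ran from -0.96 to -0.02 on array 1 and were -1.003 and -0.49 on array 2. These 5 lay below 0, but not equally far. The remaining spot on array 2 was deposited as an exact 0 and treated as missing. Among the 5 spots with a value, that nearest to 0 on each array was the same printed spot. The mean was -0.68 ± 0.10 (SD, n = 2; 95% interval -0.999 to -0.35; adjusted p = 0.00631, limma), with 1.87% of genes lower. With exact 0 kept as a value, the mean was -0.56 (adjusted p = 0.106, limma). On the reference against itself ECM2 read 0.27 ± 0.15 and -0.02 ± 0.45.

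The ECM2 call held in 5 of 11 alternatives (adjusted p 0.00222 to 0.0246, limma) and was lost in 6 (0.0542 to 0.321). Those were exact 0 kept as a value, arrays scaled to the same spread, the reference arrays sharing the spread or subtracted, and either lactating array left out (adjusted p = 0.12 without array 1 and 0.321 without array 2).

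TNC came next, at -0.29 ± 0.13 (SD over 3 spots) on array 1 and -0.46 ± 0.23 on array 2. Every spot on both arrays lay below 0, from -0.68 to -0.16. The mean of -0.38 ± 0.12 (SD, n = 2; 95% interval -0.70 to -0.05) did not pass (adjusted p = 0.113, limma), and the reference against itself gave -0.14 ± 0.06 and 0.41 ± 0.27.

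POSTN read -0.10 ± 0.17 (SD over 6 spots) on array 1 and -0.32 ± 0.16 on array 2, with a mean of -0.21 ± 0.15 (SD, n = 2; 95% interval -0.54 to 0.11; adjusted p = 0.412, limma). Its clones were at -0.13 and -0.07 on array 1, and at -0.19 ± 0.04 and -0.45 ± 0.10 on array 2, where their spots did not overlap. On their own, clone A had a mean of -0.16 (adjusted p = 0.558 over all features, limma) and clone B of -0.26 (0.362). 1 spot of clone B on array 1, at 0.20, was the highest of any member on these arrays.

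The proteoglycans VCAN and BGN lay closer to 0. VCAN read -0.12 ± 0.03 (SD over 3 spots) and -0.24 ± 0.06, for a mean of -0.18 ± 0.09 (SD, n = 2; 95% interval -0.50 to 0.14; adjusted p = 0.491, limma). BGN read -0.21 ± 0.07 and -0.13 ± 0.07, for a mean of -0.17 ± 0.06 (95% interval -0.49 to 0.16; adjusted p = 0.523, limma). All spots of both genes were below 0, and BGN was the only member nearer to 0 on array 2 than on array 1.

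FBLN5 was the member nearest to 0, at -0.09 ± 0.09 (SD over 3 spots) and -0.16 ± 0.08, with a mean of -0.12 ± 0.05 (SD, n = 2; 95% interval -0.44 to 0.20; adjusted p = 0.665, limma). The intervals of the 5 members that did not pass still hold values as low as -0.70 for TNC and -0.44 for FBLN5, so these arrays do not show that their levels were equal.

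**Figure D5:**
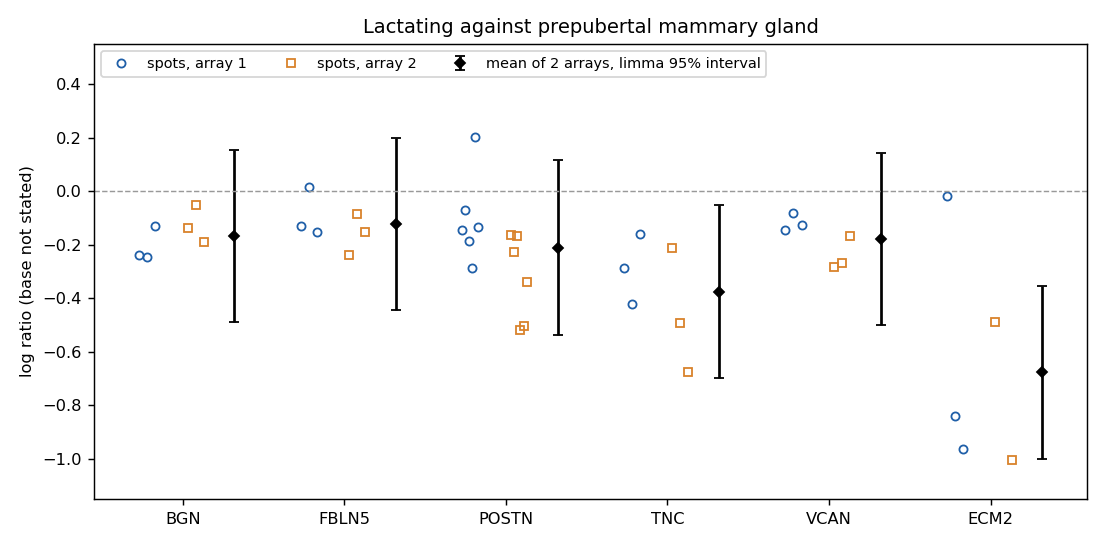
Log ratio (base not stated) of every spot of the 6 members on lactating array 1 (blue circles) and array 2 (orange squares), with black diamonds for the mean of the 2 arrays and bars for the 95% interval from limma. The interval of ECM2, -0.999 to -0.35, and that of TNC, -0.70 to -0.05, lie below 0, and the other intervals include 0; only ECM2 passed after adjustment.

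Markers of several cell types were measured on these arrays as well. The 3 measured fibroblast and smooth muscle genes were ACTG2, MYH11 and TPM1, while VIM, PDGFRA and PDGFRB of that list were not measured. They were all above 0 on array 1 (0.05 to 0.38) and all below 0 on array 2 (-0.61 to -0.06). The 3 epithelial genes ran from -0.48 to -0.09 and from -0.06 to 0.37. The 5 leukocyte genes ran from -0.81 to 0.10 and from -0.26 to 0.23, of which RAC2 passed at -0.53 ± 0.39 (SD, n = 2; adjusted p = 0.0438, limma). CD36, the only measured gene of the adipocyte list, passed at 1.01 ± 0.22 (adjusted p = 0.000286, limma). A single gene does not gauge the share of adipocytes. The 2 endothelial genes lay between -0.04 and 0.19. The part of cell makeup in the members' values was not tested.

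Other matrix genes came from lists of 176 genes, of which 18 were measured: proteoglycans and leucine-rich proteins, glycoproteins, elastic fibres, collagens, basement membrane, receptors, proteases, TGF-beta signalling and glycosaminoglycan synthesis. 5 of the 18 passed (14.8% of all genes did), the median of the 18 was 0.08, and 3 of them were below 0 on both arrays (33.7% of all genes were). Of the calls, 3 were above 0 and 2 below. On the opposite side lay ASPN at -0.51 ± 0.24 (SD, n = 2; adjusted p = 0.0412, limma) and B3GAT3, a glucuronyltransferase that completes the linker on which proteoglycan chains are built, at -0.52 ± 0.27 (adjusted p = 0.0412, limma). Each kept its call in 1 of 11 alternatives and lost it without either lactating array (adjusted p over the alternatives up to 0.634 for ASPN and 0.663 for B3GAT3, limma).

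On the casein side lay CD47, a receptor for thrombospondin, at 3.06 ± 0.83 (SD, n = 2; adjusted p = 6.65e-08, limma), called in all 7 alternatives that gave it a value, but it lay at -1.14 on array 1 of the reference against itself and had no value on array 2. MFAP4, a microfibril protein of elastic fibres, lay at 1.13 ± 0.58 (adjusted p = 0.000496, limma) and kept its call in 6 of 11, with -0.81 on array 2 of the reference against itself, and the collagen gene COL5A2 at 0.57 ± 0.06 (adjusted p = 0.0185, limma) kept it in 4 of 11. On the tissue arrays ADAM9, a membrane protease, at -1.08 and CD47 at 1.00 were the list genes at least 1 unit from 0, both in ileum.

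On the postpubertal array, whose direction is also unsettled, the members lay between -0.18 (ECM2 ± 0.23, SD over 3 spots) and 0.25 (BGN ± 0.33). The 2 POSTN clones differed there, at -0.21 ± 0.52 and 0.44 ± 0.05. FBLN5 read -0.10 ± 0.40, VCAN -0.10 ± 0.21 and TNC -0.04 ± 0.07. Among the members, taken by gene, BGN alone had a value larger in size than where the reference was hybridised to itself. Its spots spread widely on those reference arrays (SD 0.71 on array 2). Of the POSTN clones, clone B was also larger in size on the postpubertal array than on both reference arrays, and clone A was not. The share of all genes larger in size on the postpubertal array than on both reference arrays was not counted.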

How the data were processed

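The authors deposited 1 log ratio of the 2 channels per spot, for 3888 spots on each of 13 arrays. How background was corrected and ratios normalized, the base of the logarithm, the dyes and which channel was divided by which: not given in the sources used here. Deposited array medians lay between -0.0997 and 0.0304. An exact 0 (124 to 373 spots per array) was treated as missing, and each array was centred on its median. Spots of 1 accession were averaged into a feature (at least 2 spots, with a value on at least 7 arrays) and features of 1 gene into a gene. The platform's annotation gave 2538 spots 1 gene symbol, 30 spots more and 1320 none. RefSeq assembly ARS-UCD2.0 held 703 of the 706 named genes, and 0 symbols changed. Intensities were not used here.

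The lactating arrays were tested with limma 3.58.1 in R 4.3.3 (lmFit, eBayes, two-sided, mean against 0, Benjamini-Hochberg over 697 genes), after checks on simulated data. The spread rests mostly on all genes (13.5 prior of 14.5 total degrees of freedom), so p-values measure the spread between these 2 arrays as pooled over genes. Nothing in the labels says that the lactating samples came from separate animals, so this spread may be technical. It may also hold differences between the prepubertal glands, from heifers of 136 kg and 227 kg. Other arrays have no replicate and no test. Python 3.11.15 with pandas 2.3.3 did the rest. The members and gene lists were chosen with earlier results of these data known. Genes were named by rule: all members, the 2 genes most like each in tissue pattern, and list genes that passed or lay 1 unit from 0 on a tissue array. Alternatives are given in the closing section.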

Additional observations from a re-analysis of the deposited data

Results flagged for a closer look

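BGN lay at 0.25 ± 0.33 (SD over 3 spots) on the array of prepubertal against postpubertal gland, which enters no test, and this was larger in size than its values on the arrays of the reference against itself (-0.01 ± 0.11 and -0.17 ± 0.71). Its spots ran from -0.02 to 0.61, within the -0.70 to 0.64 of its spots on array 2 of the reference against itself. Clone B of POSTN, at 0.44 ± 0.05, was also beyond its own values there (-0.15 and -0.08), while clone A, at -0.21 ± 0.52, was not beyond its 0.12 and 0.37. The share of all genes beyond their own reference values on the postpubertal array was not counted. No group of arrays was large enough to look for a single array far from the others.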

How the results depend on the processing

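In the main setting limma called 1 member (ECM2) and 103 genes on the lactating arrays. With exact 0 kept it called 0 members and 32 genes, with arrays scaled to the same median absolute deviation 0 and 30, with the reference against reference arrays sharing the spread 0 and 36, and in contrast with them 0 and 13. Leaving out 1 lactating array, with the spread taken from the reference arrays (the lone array is assumed to vary like them), gave 0 members and 22 to 48 genes. On the deposited values, with no filter, with the median over spots, with features tested singly, and with only spots present on both arrays (chosen after seeing the data), ECM2 kept its call, with 78 to 136 genes or features called. 76.7% of calls lay on the casein side, against 61.9% on the deposited values, 96.7% at the same median absolute deviation, and 100% with exact 0 kept and in contrast with the reference arrays. Each member kept its direction in every alternative run on the lactating arrays. On the tissue arrays 27 of 48 member values were below 0, and 26 or 27 under the other scalings and summaries. The only member value 1 unit from 0 was on the ileum array, so 0 are left without it, by construction (added after seeing the data). Of the members' tissue values under alternatives, 177 moved by less than the SD over spots and 15 by more. Each lactating ratio already pairs the 2 RNAs of an array, so no further block was fitted. With 2 arrays, 1 array per tissue and no intensities, small differences cannot be resolved.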
